A study of Mus musculus with 6 samples.

Results

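Tight junctions seal the space between epithelial cells, and polarity complexes set where along the cell side they form. The genes described here are 9 members of that machinery, *Tjp1*, *Tjp3*, *Cgn*, *Ocln*, *Marveld2*, *Marveld3*, *F11r*, *Pard3* and *Pard6b*, chosen by name and read through every probe that carries one of these names on the arrays. All 9 were found, with 14 of the 55681 distinct probes, against 34298 gene names on the whole array. In organoids of the mouse, *Tjp3* was 12.1-fold and *Cgn* 6.95-fold higher in stomach than in esophagus, while 3 of the 4 *Pard3* probes were 3.41-fold to 3.90-fold higher in esophagus. *Marveld2*, *Pard6b* and 1 of the 2 *Ocln* probes were also higher in stomach, and no difference was called for *Tjp1*, *F11r* or *Marveld3*.

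As background, the strands of a tight junction are built from transmembrane proteins. Claudins, occludin and the related MARVEL proteins, and junctional adhesion molecules are tied on the inside of the membrane to scaffold proteins of the ZO and cingulin kinds, which link them to actin. The PAR complex, with PAR3, PAR6 and atypical protein kinase C, marks the border between the apical and the lateral membrane. In a columnar epithelium such as that of the stomach most cells reach the lumen and carry a junctional belt. In a stratified squamous epithelium such as that of the esophagus only upper layers face the lumen, and tight junction proteins concentrate there.

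The samples were 6 single-color Agilent arrays of organoids at passage 0, 3 grown from stomach and 3 from esophagus of mice numbered 1, 2 and 4. The sample titles mark all 6 as Control. Harvest was on day 8, or on day 7 for the stomach organoids of mouse 4. Stomach organoids started from glands of the corpus and esophageal organoids from dissociated cells. Both media of the methods held EGF, noggin, FGF10, a TGF-beta receptor kinase inhibitor and the ROCK inhibitor Y-27632. There, WNT3A, R-spondin1 and gastrin were in the stomach medium alone and forskolin in the esophagus medium alone. The titles do not name the medium of these arrays, and the paper also grew esophageal organoids with WNT3A and R-spondin1. If the media of the methods were used, tissue and medium cannot be told apart. The methods name wild-type C57BL/6 females, and the labels give neither strain nor age for these mice. In whole organoids, fewer cells of a type and less RNA per cell cannot be told apart either.

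Most marker genes followed the tissue labels. *Krt5* was 11.93 log2 units higher in esophagus and *Krt8* 11.24 log2 units higher in stomach. In the lower tissue each was well above background on only 1 of 3 arrays, so these sizes are approximate. All 8 columnar markers were called higher in stomach, and 5 of 6 squamous markers were called higher in esophagus. The brightest *Trp63* probe was called in the opposite direction, higher in stomach at a log2 difference of -1.22 (adjusted p = 0.0249). Other *Trp63* probes are not described here, and the paper reports P63 protein in esophageal organoids. No tissue had all its arrays well above background for any of 6 fibroblast or 3 smooth muscle markers, and *Ptprc* was at background on every array. Between 45.5% and 51.1% of spots were well above background on each array, and none was saturated. Values below are the authors' background-corrected, quantile-normalized log2 intensities, given in the order mouse 1, 2 and 4. Adjusted p-values are from limma, with Benjamini-Hochberg adjustment over all 55681 probes and a threshold of 0.05. A log2 difference is esophagus minus stomach, so it is below 0 where stomach was higher.

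Of the 14 member probes, 3 were called higher in esophagus and 5 higher in stomach, and 6 were not called. Over all probes, 5.94% were called higher in esophagus and 6.22% higher in stomach, 12.2% in all. Of the probes well above background on all 6 arrays, 13 of them member probes, 20.4% were called. With each gene read from its brightest probe, 1 member gene was called higher in esophagus and 4 higher in stomach, against 7.15% and 7.70% of all genes. The tissues did not overlap for 9 of the 14 member probes, against 28.6% of all probes with 6 values. The median log2 difference was -0.41 over the member probes and 0.02 over all probes. These shares describe the members and carry no test of the list.

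**Figure D1:**
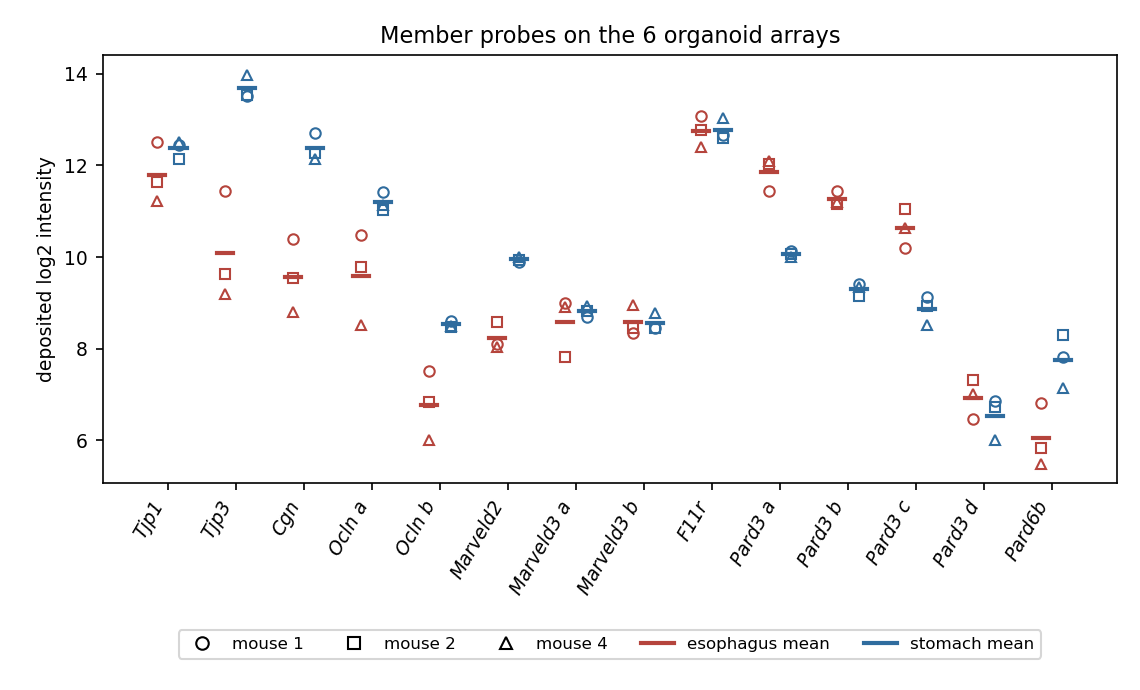
Deposited log2 intensity (vertical axis) of the 14 member probes on the 6 arrays, with symbols for mice 1, 2 and 4, red for esophagus, blue for stomach and bars for the mean of 3 arrays. Stomach lies above esophagus without overlap for Tjp3, Cgn, both Ocln probes, Marveld2 and Pard6b, and esophagus above stomach for Pard3 probes a, b and c. Letters tell probes of a gene apart, and heights of different probes are not comparable.

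Among the scaffolds, *Tjp3* (ZO-3), a membrane-associated guanylate kinase homologue that binds occludin and claudins, had the largest difference of the members. Its log2 intensities were 11.44, 9.63 and 9.19 in esophagus and 13.52, 13.54 and 13.98 in stomach (means 10.09 ± 1.19 and 13.68 ± 0.26, SD, n = 3 arrays). All 3 stomach arrays lay more than 2 log2 units above every esophagus array, and the esophagus arrays themselves were widely spread. The log2 difference was -3.59 ± 0.52 (SE, limma adjusted p = 0.00335), or 12.1-fold higher in stomach. Without the esophagus array of mouse 1 it was -4.27, and without that of mouse 4 -3.15 (limma adjusted p = 3.69e-05 and 0.00633). *Cgn* (cingulin), which ties the junction plaque to actomyosin, read 10.39, 9.53 and 8.80 in esophagus and 12.71, 12.27 and 12.14 in stomach. The tissues did not overlap, and the log2 difference was -2.80 ± 0.38 (SE, limma adjusted p = 0.00227), or 6.95-fold.

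*Tjp1* (ZO-1), the scaffold of the same family found in nearly all epithelia, gave 12.50, 11.64 and 11.21 in esophagus and 12.45, 12.15 and 12.51 in stomach. The esophagus array of mouse 1 was level with stomach and the other 2 lay below it. The log2 difference of -0.59 ± 0.31 (SE) was not called (limma adjusted p = 0.322), and its 95% interval ran from -1.31 to 0.14. Without the esophagus array of mouse 1 it was -0.94 with a limma adjusted p of 0.0289, so that array decides this call. The change of *Tjp3* exceeded that of *Tjp1* by 3.01 log2 units. Array by array, the log2 gap between the 2 probes did not overlap between tissues (exact permutation test, two-sided p = 0.1, the smallest that 3 arrays against 3 allow; adjusted p = 0.175 over 14 pairs of probes).

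The probes lie at chr10:80735967-80736026 for *Tjp3*, chr3:94564031-94564090 for *Cgn* and chr7:72441126-72441185 for *Tjp1*, all on the minus strand of mm9, the build of the array files. Each is 60 bases long, and each sequence occurs in 1 probe name. Whether a probe falls in coding sequence was not analysed here. Windows of 250 bases before each RefSeq start (GRCm38.p6) were found for 8 of the 9 genes, 12 windows in all, and the table used holds no window for *Marveld3*. A window of *Tjp3* and that of *Cgn* are printed because these genes differed most. *Tjp3* has 2 starts in the table, each window with 1 CAGGTG site, and the window of the upstream start is shown. Capitals mark the E-box letters CAGGTG on either strand in *Tjp3*, and in *Cgn* the letters AACCNGTT on either strand, the motif of grainyhead-like factors.

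Tjp3, chr10:81291582-81291831, minus strand: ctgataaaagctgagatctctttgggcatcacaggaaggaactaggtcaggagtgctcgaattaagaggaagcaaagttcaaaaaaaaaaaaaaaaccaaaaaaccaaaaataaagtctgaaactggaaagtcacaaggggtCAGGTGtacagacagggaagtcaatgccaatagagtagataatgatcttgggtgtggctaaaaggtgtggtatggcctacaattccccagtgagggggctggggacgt
Cgn, chr3:94786483-94786732, minus strand: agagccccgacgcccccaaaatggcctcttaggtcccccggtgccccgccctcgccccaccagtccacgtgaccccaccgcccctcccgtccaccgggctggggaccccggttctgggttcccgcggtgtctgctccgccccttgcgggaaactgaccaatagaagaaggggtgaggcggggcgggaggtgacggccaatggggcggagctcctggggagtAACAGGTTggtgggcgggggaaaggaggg

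CAGGTG is the site class read by Snail and ZEB repressors of epithelial genes. It was in 6 of the 12 member windows, from 5 genes (*F11r*, *Ocln*, *Pard3*, *Pard6b* and *Tjp3*), and in 17.2% of 32851 windows of this length. These 5 include genes that were higher in stomach, higher in esophagus and not called. AACCNGTT was in the *Cgn* window only among members, and in 1.79% of all windows. The GC box GGGCGG was in 9 member windows from 7 genes, *Tjp3* being the only one of the 8 without it, and in 32.7% of all windows. The other searches, also on both strands, were AGATAA (1 member window, *Tjp3*; 9.99% of all), TGANTCA (1, *F11r*; 6.75%), TATAAA (3, *Marveld2* and *Pard3*; 12.4%) and CCACCC (3 windows; 28.1%). The letters CCGGAAG (6.91% of all windows) were in none of these 12, nor was GGAATG (12.6%), nor CAGCTG (13%), nor the HNF1 palindrome GTTAATNATTAAC (0.00913%). The 2 windows of *Marveld2* overlap over most of their length. A match is a description of the letters.

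Among the MARVEL proteins, a family of membrane-spanning junction proteins, *Ocln* and *Marveld2* were lower in esophagus, and no difference was called for *Marveld3*. *Ocln* (occludin) has 2 probes that lie 1.145 kb apart on chromosome 13 and share an accession. Probe a read 10.48, 9.79 and 8.52 in esophagus and 11.42, 11.02 and 11.14 in stomach. Probe b read 7.504, 6.84 and 6.003 in esophagus and 8.61, 8.48 and 8.50 in stomach. On both probes every esophagus array was below every stomach array, with the array of mouse 4 lowest. The log2 difference was -1.59 ± 0.44 (SE) for probe a, not called at a limma adjusted p of 0.058, and -1.75 ± 0.34 for probe b, called at a limma adjusted p of 0.0135. With the mouse as a block, the limma adjusted p of probe a was 0.038. Their changes differed by 0.16 log2 units (exact permutation p = 0.4, adjusted p = 0.56), with overlapping tissues.

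The call of *Ocln* therefore depended on probe and setting. With its 2 probes averaged the log2 difference was -1.67 ± 0.40 (SE, limma adjusted p = 0.0351). Without the stomach array of mouse 1 or of mouse 2, probe b had a limma adjusted p of 0.0657 or 0.0573. Without the esophagus array of mouse 1 or of mouse 4, probe a had one of 0.0119 or 0.0384, with log2 differences of -2.04 and -1.06.

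*Marveld2* (tricellulin), which gathers at the corners where cells meet, read 8.11, 8.58 and 8.03 in esophagus and 9.90, 9.94 and 10.01 in stomach. The stomach arrays spanned 0.10 log2 units and all lay above esophagus. The log2 difference was -1.71 ± 0.18 (SE, limma adjusted p = 0.000601), or 3.27-fold higher in stomach. *Ocln* and *Marveld2* are neighbours on chromosome 13, with no protein-coding gene between them in the RefSeq table.

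*Marveld3*, the remaining MARVEL protein of tight junctions, has 2 probes 5.266 kb apart on chromosome 8 that match different transcript records. They are shown by their first 30 bases, written 5′ to 3′, since they are the parts of the gene that were read.

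Marveld3 a (NM_212447): tcccatacttgattcctaagctccctcagt
Marveld3 b (NM_028584): ttgggaccatcaccgtatattcccgtacaa

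Probe a read 9.01, 7.81 and 8.92 in esophagus and 8.69, 8.83 and 8.94 in stomach. Probe b read 8.33, 8.46 and 8.95 in esophagus and 8.46, 8.44 and 8.78 in stomach. The tissues overlapped on both, and the array of mouse 2 was the low one on probe a only. The log2 differences were -0.24 ± 0.31 and 0.02 ± 0.20 (SE), with limma adjusted p-values of 0.722 and 0.970 and 95% intervals of -0.96 to 0.48 and -0.45 to 0.50. The change of *Marveld2* was 1.47 log2 units below that of *Marveld3* probe a, with the gap between the probes not overlapping between tissues (exact permutation p = 0.1, adjusted p = 0.175).

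*F11r* (JAM-A), the junctional adhesion molecule that recruits PAR3 to early contacts, was bright in both tissues. Its log2 intensities were 13.09, 12.78 and 12.39 in esophagus and 12.67, 12.61 and 13.04 in stomach. The tissues overlapped fully, mice 1 and 2 being higher in esophagus and mouse 4 in stomach. The log2 difference was -0.02 ± 0.22 (SE, limma adjusted p = 0.970), and the 95% interval of -0.53 to 0.48 leaves room for a difference of that size in either direction. Its probe lies at chr1:173393848-173393907 on the plus strand (mm9).

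**Figure D2:**
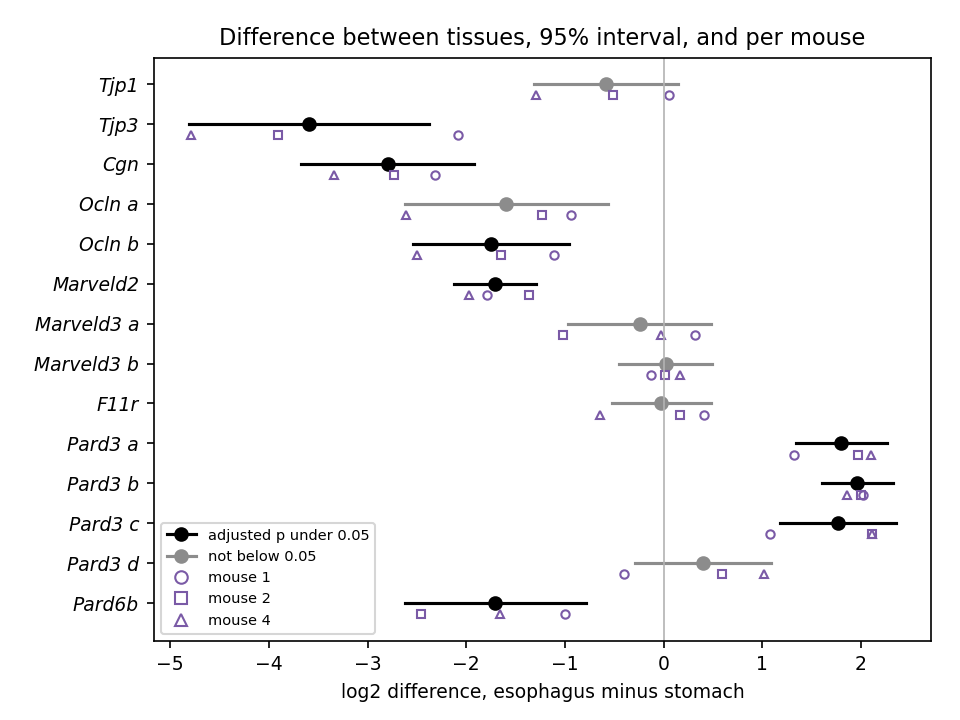
Log2 difference between tissues (horizontal axis) for each member probe with its 95% interval, black where the limma adjusted p was below 0.05 and gray otherwise, and the difference within each of the 3 mice in purple below it. Tjp3 and Cgn lie farthest to the stomach side, and Pard3 probes a, b and c are the only ones called on the esophagus side.

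The polarity genes moved in opposite directions. *Pard3* (PAR3), the scaffold that brings PAR6 and atypical protein kinase C to the junction, was the only member called higher in esophagus, and *Pard6b*, 1 of 3 PAR6 genes, was called higher in stomach. *Pard3* has 4 probes over 209.7 kb of chromosome 8. Probes a and c are matched to the same transcript records, and probes b and d to others. Their first 30 bases are shown because the probes did not all give the same result.

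Pard3 b (NM_001122850, NM_001013580; 0 kb): agtacttgcctagcatttacagcgccctgc
Pard3 d (NM_001013581; 24.6 kb): tattctctggagaggcaaatgaatggagac
Pard3 c (NM_001363432 and others; 208.8 kb): ctgagctcaaagaaggatggcagcattttg
Pard3 a (NM_001363432 and others; 209.7 kb): caaggccgcattactaagttattctgccgt

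Probe a read 11.45, 12.03 and 12.10 in esophagus and 10.13, 10.06 and 9.99 in stomach. Probe b read 11.44, 11.16 and 11.21 in esophagus and 9.42, 9.16 and 9.35 in stomach. Probe c read 10.21, 11.04 and 10.63 in esophagus and 9.13, 8.93 and 8.52 in stomach. On each of these 3 probes every esophagus array was above every stomach array. The log2 differences were 1.80 ± 0.20, 1.96 ± 0.15 and 1.77 ± 0.25 (SE), with limma adjusted p-values of 0.00077, 0.00012 and 0.00301. These are 3.48-fold, 3.90-fold and 3.41-fold, and all 3 mice had the higher value in esophagus on each probe.

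Probe d, matched to record NM_001013581, read 6.47, 7.33 and 7.02 in esophagus and 6.86, 6.74 and 5.998 in stomach. The tissues overlapped, and mouse 1 had the higher value in stomach. The log2 difference was 0.40 ± 0.30 (SE, limma adjusted p = 0.493), with a 95% interval of -0.29 to 1.09. The changes of probes a, b and c exceeded that of probe d by 1.40, 1.56 and 1.37 log2 units, and none of the 3 gaps overlapped between tissues (exact permutation p = 0.1 each, adjusted p = 0.175). Probe d was well above background on all 6 arrays.

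**Figure D3:**
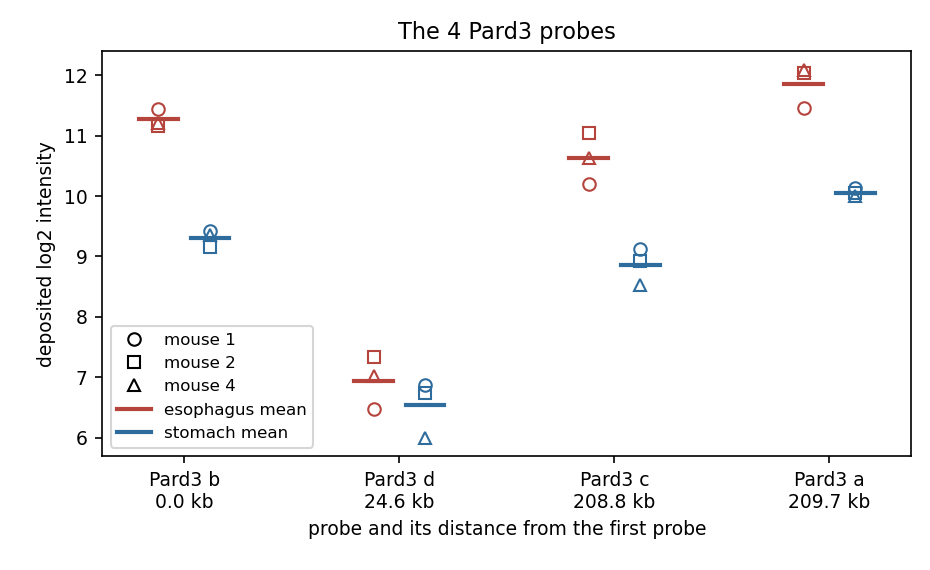
Deposited log2 intensity (vertical axis) of the 4 Pard3 probes, placed in order of their distance in kb from the first probe (horizontal axis), with symbols for mice and bars for means of 3 arrays. Red esophagus and blue stomach values are apart on probes a, b and c and overlap on probe d.

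RefSeq holds 2 *Pard3* starts in the promoter table, 235.6 kb apart, and the 250 bases before each are printed to show how they differ (GRCm38.p6, capitals for CAGGTG on either strand). The upstream window holds no such site, is 79.2% G and C and has a GC box. The downstream window holds 3 of them and a TATAAA, and is 51.6% G and C. The median window of the table is 52.4% G and C.

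Pard3 upstream start, chr8:127063806-127064055, plus strand: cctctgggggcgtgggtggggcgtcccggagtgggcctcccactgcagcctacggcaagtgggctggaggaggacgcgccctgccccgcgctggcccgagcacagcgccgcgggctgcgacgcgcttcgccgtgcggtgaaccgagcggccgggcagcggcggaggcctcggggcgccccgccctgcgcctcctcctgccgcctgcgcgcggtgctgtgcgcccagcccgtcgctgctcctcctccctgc
Pard3 downstream start, chr8:127299362-127299611, plus strand: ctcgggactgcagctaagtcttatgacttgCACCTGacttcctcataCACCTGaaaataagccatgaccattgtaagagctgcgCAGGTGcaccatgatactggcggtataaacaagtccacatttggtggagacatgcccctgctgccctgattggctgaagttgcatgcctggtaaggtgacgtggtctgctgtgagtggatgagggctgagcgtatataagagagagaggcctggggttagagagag

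*Pard6b* read 6.81, 5.84 and 5.49 in esophagus and 7.81, 8.30 and 7.15 in stomach. Each esophagus array was below each stomach array, and the esophagus array of mouse 4 was not well above background. The log2 difference was -1.71 ± 0.39 (SE, limma adjusted p = 0.0287), or 3.26-fold higher in stomach. This call was lost without any 1 of 4 arrays. The limma adjusted p was 0.111 without the stomach array of mouse 1, 0.115 without that of mouse 2, 0.0959 without the esophagus array of mouse 2 and 0.0696 without that of mouse 4 (-1.43), which is the same fit as the slide as a block. A larger background offset of 50 also ended it (-1.29, limma adjusted p = 0.0532), while 75th percentile scaling gave -2.59 (limma adjusted p = 0.0195).

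Across the esophagus arrays the members were less even than across the stomach arrays. The range over 3 arrays was wider in esophagus for 13 of 14 member probes, against 58.1% of probes well above background on all arrays. Mouse 1 was highest and mouse 4 lowest in esophagus for 7 of 14 member probes (*Tjp1*, *Tjp3*, *Cgn*, both *Ocln* probes, *F11r* and *Pard6b*), against 16.7% of those probes. *Pard3* probe a and *Marveld3* probe b had the reverse order, with mouse 4 highest and mouse 1 lowest. *Pard3* probes c and d were also lowest in mouse 1. The range for *Tjp3* was 2.24 log2 units in esophagus and 0.46 in stomach.

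Markers of squamous differentiation and of proliferation also differed between these 3 esophagus arrays. The mean log2 intensity of 6 suprabasal markers was 13.85, 14.02 and 11.90 for mice 1, 2 and 4. *Tgm1* (14.80, 13.54 and 12.36) and *Sprr3* (15.62, 15.19 and 11.62) had the order seen for 7 of the 14 member probes. *Krt13*, *Krt4* and *Lor* were highest in mouse 2, *Lor* reading 14.44, 16.94 and 10.38, and *Ivl* was lowest in mouse 2. The cell cycle gene *Mki67* ran the other way, at 11.95, 13.48 and 13.77, which is the order of *Pard3* probe a and *Marveld3* probe b. Of 3 immune markers *Ptprc* was at background throughout and *Cd3e* read 7.39, 7.23 and 7.55 in esophagus. *Cd68*, a lysosomal macrophage marker, read 14.77, 12.94 and 11.80 there, the same order as the 7 member probes, and their summed linear intensity ran from 3784 to 28220 in esophagus and from 2293 to 5614 in stomach. The esophagus array of mouse 4 was also the only one on the second slide. Their part in the order of the members was not tested, and slide and array cannot be told apart for mouse 4. Without that array the call of *Pard6b* was lost (-1.43, limma adjusted p = 0.0696). Its omission gave a log2 difference of -3.15 for *Tjp3*, -2.41 for *Cgn*, -1.06 and -1.36 for *Ocln* probes a and b, -0.30 for *Tjp1* and 0.16 for *F11r*. The limma adjusted p was 0.00633 for *Tjp3*, 0.00223 for *Cgn*, 0.0384 and 0.00899 for the *Ocln* probes, 0.610 for *Tjp1* and 0.731 for *F11r*.

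A wider list of 47 other tight junction and polarity genes, each read from its brightest probe, was found in full on the arrays. Of these, 7 were called higher in esophagus and 12 higher in stomach, against 7.15% and 7.70% of all genes, and 28 were not called. Their median log2 difference was -0.12, against 0.03 over all genes. The counts of each group below are to be set beside the same 7.15% and 7.70% of all genes, and no group holds more than 9 genes. The widest differences of the list were those of *Igsf5*, *Pard6g* and *Amot*.

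Within the PAR and atypical kinase C group, 2 of 7 genes were called higher in esophagus and 1 higher in stomach. *Pard6g*, a PAR6 gene like *Pard6b*, read 13.84, 14.38 and 13.95 in esophagus and 8.43, 7.98 and 8.43 in stomach. The tissues were far apart, at a log2 difference of 5.78 ± 0.21 (SE, limma adjusted p = 1.54e-06), or 54.8-fold higher in esophagus, opposite to *Pard6b*. *Pard6a*, the remaining PAR6 gene, had a log2 difference of -0.34 ± 0.26 (SE, limma adjusted p = 0.503).

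*Tiam1*, a Rac exchange factor that binds PAR3, was higher in esophagus by 3.46 ± 0.35 log2 units (SE, limma adjusted p = 0.000489). *Prkcz*, an atypical protein kinase C, was called higher in stomach (-1.24 ± 0.17, adjusted p = 0.00234). For the other one, *Prkci*, the difference was -0.11 ± 0.18 (adjusted p = 0.799), with a 95% interval of -0.53 to 0.31. Of the 3 *Prkcz* probes, another was called in the same direction (-1.85, adjusted p = 0.00414), and the third had overlapping tissues and a log2 difference of -0.09.

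Of 8 genes for adhesion molecules of the JAM kind and for tricellular junctions, 4 were called higher in stomach and none higher in esophagus. *Igsf5* (JAM4), which binds the scaffold MAGI1, read 12.77, 12.59 and 12.22 in stomach, and in esophagus none of the 3 arrays had it well above background. In the deposited values it was at least 178-fold higher in stomach (limma adjusted p = 2.46e-07), and its other probe was called in the same direction. Its log2 difference was -7.61 as deposited, -6.48 with an offset of 50 and -10.50 with 75th percentile scaling. *Cxadr*, the coxsackie and adenovirus receptor of tight junctions, was higher in stomach by 3.51-fold (log2 difference -1.81 ± 0.19 SE, adjusted p = 0.000541).

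*Esam*, an adhesion molecule best known from endothelium, was higher in stomach by 5.76-fold (-2.53 ± 0.40 SE, adjusted p = 0.00506), with log2 differences of -2.02 at an offset of 50 and -3.32 under 75th percentile scaling. The 3 endothelial markers were not called. *Pecam1* and *Kdr* were well above background on all 6 arrays. *Cdh5* was at background on every array, with stomach above esophagus without overlap (-0.52, limma adjusted p = 0.0986). The linear intensities of the 3 summed to 430 to 642 in esophagus and 485 to 522 in stomach, most of it from *Kdr*. Whether endothelial cells bear on *Esam* was not tested. *Lsr*, which recruits tricellulin to tricellular contacts, was also called higher in stomach (-1.47 ± 0.17 SE, adjusted p = 0.00115). *Jam2* was above background on 1 array and *Jam3* on none.

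Among 9 scaffolds, 3 were called higher in stomach and 1 in esophagus. *Magi1*, a multi-PDZ scaffold, was higher in stomach by 4.08-fold (-2.03 ± 0.23 SE, adjusted p = 0.000973), and 1 of its 3 probes was not called (-0.83, adjusted p = 0.0715). *Mpdz* (MUPP1), a large PDZ scaffold, was not well above background on the stomach arrays and was at least 1.76-fold higher in esophagus in the deposited values (limma adjusted p = 0.0367). Leaving out any array other than the esophagus array of mouse 1 took its adjusted p to between 0.0647 and 0.148, and an offset of 50 to 0.0558. Its size depends on the background offset, the log2 difference being 0.81 as deposited, 0.46 with an offset of 50 and 1.90 with 75th percentile scaling.

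In the Crumbs group 1 of 7 genes was called, *Lin7b*, which binds the Crumbs partner PALS1, higher in esophagus by 1.56 ± 0.27 log2 units (SE, adjusted p = 0.00726). It was well above background on 1 of 3 stomach arrays, and its log2 difference was 0.99 with an offset of 50 and 3.08 with 75th percentile scaling. In the Scribble group 1 of 6 was called in each direction, *Scrib* itself at 0.61 and *Dlg5* at -0.94. Neither of the 2 kinases, *Mark2* and *Stk11*, was called. Of 8 other regulators at junctions, 2 were called higher in esophagus and 3 in stomach. The angiomotins, PDZ-binding partners of the junction and of YAP, were split. *Amot* was 15.1-fold higher in stomach (-3.91 ± 0.34 SE, adjusted p = 0.000201), and *Amotl1* was at least 5.08-fold higher in esophagus in the deposited values (adjusted p = 3.02e-05). That bound depends on the background offset, the log2 difference being 2.42 as deposited, 1.57 with an offset of 50 and 5.35 with 75th percentile scaling.

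*Amotl2* was not called (-0.17 ± 0.69 SE, adjusted p = 0.921), and read 10.98, 10.19 and 7.87 in esophagus, the mouse order seen for 7 of the member probes. Of the 32 list genes well above background on all 6 arrays, 10 had mouse 1 highest and mouse 4 lowest in esophagus, against 16.7% of all such probes.

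**Figure D4:**
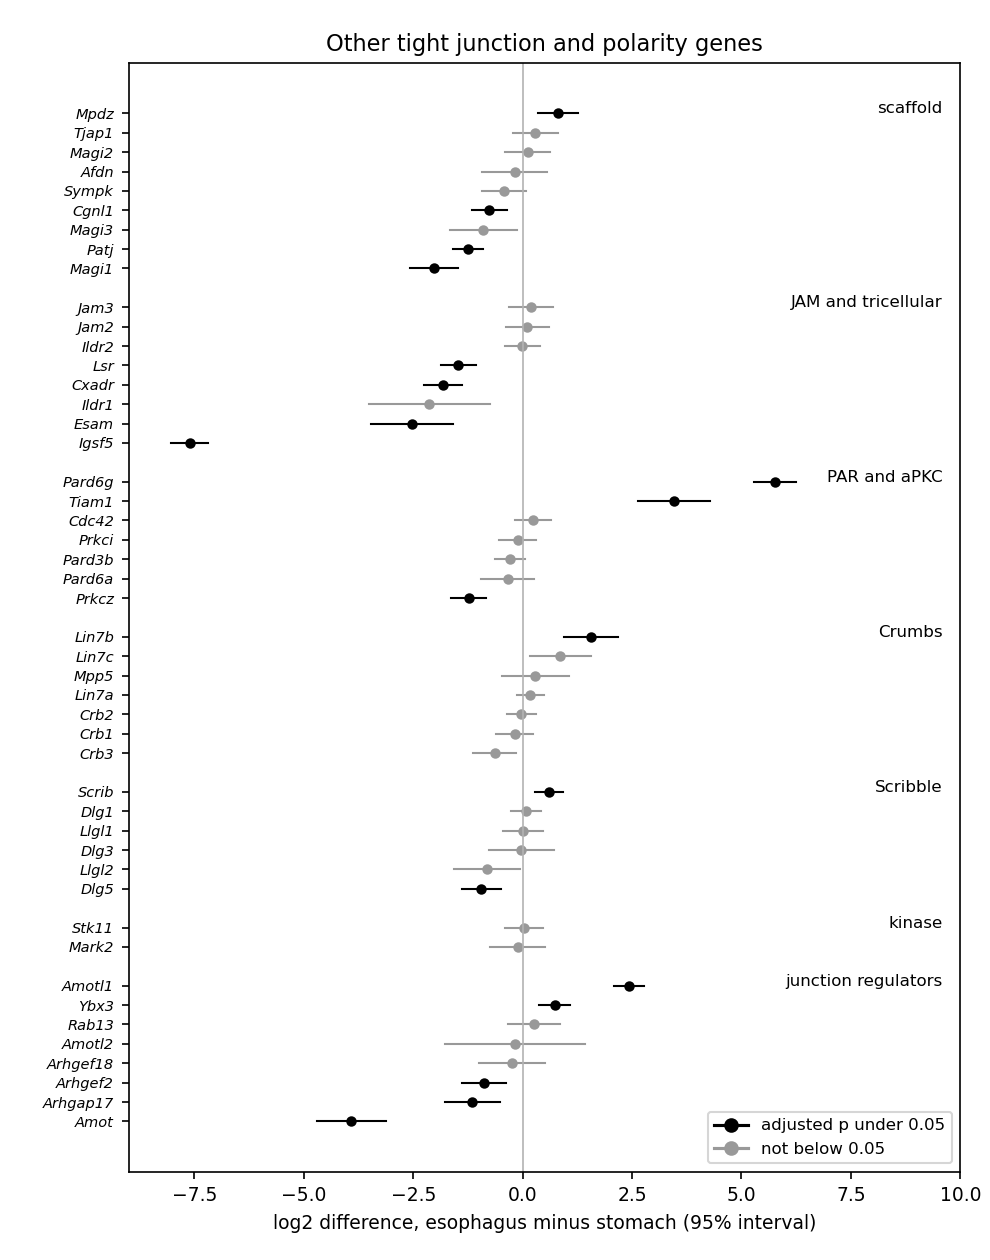
Log2 difference between tissues with its 95% interval (horizontal axis) for the 47 other genes by group, black where the limma adjusted p was below 0.05 and gray otherwise. Pard6g and Tiam1 lie farthest to the esophagus side and Igsf5 and Amot farthest to the stomach side.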

How the data were processed

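Total RNA of mouse organoids was hybridized to single-color Agilent 8x60K arrays, read by the authors with Agilent Feature Extraction (version 11.5.1.1 in the file headers). The authors corrected the background, quantile normalized the arrays and deposited the result as a table of log2 intensities. This table was used as given, and its columns matched the arrays of the same samples. Its 2029 empty cells were spots marked as outliers, none of a member probe. The deposited scanner files hold the intensity of each spot and its local background, and gave the flags, names, mm9 positions, sequences and alternative values.

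In R 4.3.3 with limma 3.58.1, lmFit and eBayes were run over 6 arrays and 55681 non-control probes with no block, with Benjamini-Hochberg adjustment. Spots of a probe were averaged, and a gene was read from its brightest probe. Single gaps between probes were compared by exact permutation, for pairs chosen with the results known. The number of arrays limits the precision. For a probe well above background on no array of a tissue, the fold is a lower bound against the dimmest signal well above background, or the probe's own where higher. For *Mpdz* the probe's own signal was used throughout, so its fold is the plain estimate and no bound. The 2 arrays that share a mouse number can be paired by that label alone. Their deviations from tissue means correlated at 0.02, 0.01 and -0.01, against -0.07 to 0.04 between different mice. The limma script was tested on simulated data. The members and lists were chosen with earlier results of these data known. Named from the wider list were the 5 largest called differences in each direction, with *Prkci* and *Prkcz*; *Pard6a*, *Lsr*, *Scrib*, *Dlg5*, *Amotl2* and others were named after their values were seen. The wider list of 47 genes leaves out 1 gene that is not reported here.

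Alternatives were mean intensities with normexp offsets of 16 and 50, processed signal scaled to the 75th percentile, outlier-marked spots kept, trend and robust variances, mouse or slide as a block, a filter on dim probes, each array left out, averaged probes, and unadjusted p with a 1.5-fold threshold. Median intensities with an offset of 15, and all alternatives for 12 named genes of the wider list, were added after seeing the data. The other genes named from that list, *Lsr*, *Scrib* and *Dlg5* among them, were not examined singly under the alternatives. Promoter windows were searched for short motifs chosen with the results known. The methods give shared housing conditions for the animals in general. Whether these mice shared a litter or a culture batch is not given in the sources used here.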

Additional observations from a re-analysis of the deposited data

How the results depend on the processing

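Of 196 recomputed member differences (14 probes, 14 alternatives), 175 kept direction and side of the threshold, 7 lost the call, 6 gained it and 8 changed sign, these last in *Marveld3* and *F11r* only. *Tjp3*, *Cgn*, *Marveld2* and *Pard3* probes a, b and c kept their calls under all 14. The mouse as a replicate block moved the member calls from 8 to 9 by adding *Ocln* probe a (adjusted p = 0.038) and changed no other member call. Scaling to the 75th percentile moved the median log2 difference of all probes from 0.02 to 0.19. Under it *F11r* was 0.24, *Marveld3* probe b -0.0023 and *Prkci* 0.23. The slide as a block, the same fit as leaving out the esophagus array of mouse 4 alone on its slide, was counted once, and under it these were 0.16, -0.16 and 0.012. With each array left out in turn, *Marveld3* probe a ran from -0.46 to 0.14, probe b from -0.16 to 0.14, *F11r* from -0.19 to 0.16 and *Prkci* from -0.21 to 0.012. Member probes called higher in stomach ran from 3 (without the stomach array of mouse 1 or 2) to 7. All probes called ran from 4091 to 7415, those higher in esophagus from 1794 to 3500 and those higher in stomach from 2297 to 3915. In the wider list, 75th percentile scaling left 13 calls, 8 of them higher in stomach, and the slide block left 4 higher in esophagus. Leaving out arrays gave 12 to 20 calls there, 4 to 7 higher in esophagus and 8 to 13 higher in stomach, the lowest totals being without the stomach array of mouse 1 or the esophagus array of mouse 2. By unadjusted p and 1.5-fold, 5168 of all 55681 probes were higher in esophagus and 4928 higher in stomach. Of the 14 member probes, 3 and 6 were. The causes of these shifts were not tested. *Pard6b* was well above background on 2 of 3 esophagus arrays, and whether this bears on its lost calls was not tested.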
